A study of Rattus norvegicus with 6 samples.

Results

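The expression of 10 genes that move, store and sense iron was followed in primary Schwann cells, the glia of the peripheral nerve, after stimulation with soluble NRG1β1, a growth factor of the neuregulin family (from here on NRG1). The genes were taken by symbol, as members of an iron-handling group selected on values of the NRG1 and mock comparison: Tf, Tfrc, Steap3, Slc11a2, Fth1, Ftl1, Slc40a1, Aco1, Ireb2 and Hmox1. All 10 were among the 17327 gene symbols counted, and 9 of them passed the filter on low counts that left 9740 genes to test. They were gathered with results of the same comparison of NRG1 with mock in view, so that their changes are given here as a description, with no p-value; which values led to the choice is not recorded. The other genes of the iron and haem pathways were listed by function, also with earlier results of these data known, and are given with the adjusted p-values of the fit over all genes.

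The cells came from the sciatic nerves of adult Wistar rats and were kept as primary cultures. Both groups had been grown with 10% serum, 63 ng/mL glial growth factor and 10 µM forskolin, a compound that raises cAMP, and both were then starved for 18 h in 2% serum, still with forskolin. Glial growth factor is a name for forms of neuregulin 1, and the study's methods give the growth medium as holding recombinant soluble NRG1β1, so that mock cells too had met the ligand before starvation. The comparison is therefore between renewed stimulation and withdrawal, and how far starvation removed the earlier ligand was not measured. The 3 NRG1 samples received 10 nM recombinant NRG1 for 6 h, and the 3 mock samples received the buffer alone for the same time. Samples with the same number, 1, 2 or 3, came from the same independent experiment and formed a pair. Counts are given per 1000000 counts on genes (CPM), on library sizes normalised by TMM, and levels are compared between samples but not between genes, because transcript lengths were not used.

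Iron travels in the blood bound to transferrin (Tf), which docks on the transferrin receptor (Tfrc) and is taken into endosomes. There the iron is reduced by Steap3 and passes into the cytosol through the transporter encoded by Slc11a2. Surplus iron is packed into ferritin, a shell built of heavy (Fth1) and light (Ftl1) chains, or leaves the cell through ferroportin (Slc40a1), while Hmox1 frees iron from haem. The iron regulatory proteins Aco1 and Ireb2 bind hairpins in several of these mRNAs: in iron-poor cells they protect the Tfrc message from decay and block translation of ferritin. In peripheral nerve iron is needed for the enzymes of respiration and lipid synthesis on which myelin formation draws.

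Replicate 1 stood apart from the other replicates. The first principal component of log2 CPM held 68% of the variance and separated both samples of replicate 1, mock and NRG1, from the other 4. Counts on genes ranged from 6821590 to 15475018 per library, and a floor of 3 counts corresponded to between 0.19 and 0.44 CPM. All 10 Schwann cell markers were detected in every sample, and their summed level was 8250 CPM in mock and 6045 CPM in NRG1 of replicate 1, against 15460 to 21100 CPM in the other 4 samples. It was lower with NRG1 in every pair, and 5 of the 10 fell, among them S100b, Cdh19, Mbp and Pmp22. The 9 fibroblast markers summed to 71280 and 72360 CPM in replicate 1 and to between 15300 and 24090 CPM elsewhere. The fibroblast genes Dcn, Lum and Thy1 had no count in the 4 samples of replicates 2 and 3, whereas in replicate 1 Thy1 reached 1268.4 CPM in mock and 1143.3 CPM in NRG1. Col1a2 was at 0 in 5 of the 6 samples, so that this marker was not informative. None of the 4 fibroblast markers tested passed over the 3 pairs, but Col3a1 was lower with NRG1 in pairs 2 and 3 and not in pair 1, with log2 ratios of 0.05, -1.59 and -1.38 in pairs 1, 2 and 3. Without replicate 1 it fell, at -1.48 ± 0.19 (SE, adjusted p = 3.2e-13 in edgeR's quasi-likelihood test), while Col1a1 at -0.33 and Postn at 0.34 did not pass. Of the 12 macrophage markers, 6 had no count in any sample, among them Ptprc and Cd163, and the list summed to between 3.23 and 10.69 CPM, highest in replicate 1. The endothelial list summed to 6.53 to 15.2 CPM, with Pecam1, Cdh5 and Cldn5 at 0 in all samples, and the 5 red blood cell markers to at most 0.296 CPM. In bulk RNA fewer cells of a type cannot be told apart from less RNA per cell. The changes of the iron genes and of every pathway gene that passed are therefore given with and without replicate 1.

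The promoters of the genes that rose are shown so that the region upstream of each can be read beside its values. For 7 of the 10 genes RefSeq promoters on the GRCr8 assembly were matched by symbol. Fth1, Ftl1 and Hmox1 are not shown. The 250 bases before the start of Tfrc (chr11:81690319-81690568, minus strand) and of Steap3 (chr13:33944357-33944606, minus strand) are printed 5′ to 3′, with a TGACGT match in capitals.
Tfrc: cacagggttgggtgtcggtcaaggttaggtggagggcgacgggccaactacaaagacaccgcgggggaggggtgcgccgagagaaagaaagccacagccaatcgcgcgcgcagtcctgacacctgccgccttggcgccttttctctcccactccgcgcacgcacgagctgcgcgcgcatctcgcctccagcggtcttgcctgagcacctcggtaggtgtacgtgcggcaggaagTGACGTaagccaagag
Steap3: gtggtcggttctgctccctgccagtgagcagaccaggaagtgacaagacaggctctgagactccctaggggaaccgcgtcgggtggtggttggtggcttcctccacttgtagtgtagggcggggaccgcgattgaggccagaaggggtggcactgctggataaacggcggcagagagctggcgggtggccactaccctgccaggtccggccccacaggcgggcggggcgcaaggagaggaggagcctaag
The window upstream of Tfrc was 64.8% G and C, and that of Steap3 65.6%. TGACGT, a part of the cAMP response element, was searched after the Tfrc sequence had been read. It began 16 bases before the start of Tfrc, was in no other of the 8 promoter windows of these genes, and was in 7.94% of all 33465 promoters of 300 bases on either strand. Of the motifs chosen earlier, CACGTG (the E-box) and TGACTCA (the AP-1 site) were in none of the 8 windows, against 6.42% and 4.63% of all promoters. CAGTGN, the loop letters of an iron-responsive element, was in the windows of Ireb2 and Steap3 and in 56.6% of all promoters. Because such an element is a hairpin of the mRNA, a match on either strand of promoter DNA does not show one. CAGTGN overlaps none of the other motifs in these windows.

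Of the 9 tested genes, 2 rose with NRG1, Tfrc and Steap3, and none fell. DESeq2 called 1, Tfrc, and again no fall. Over all 9740 genes tested, 6.31% rose and 5.51% fell at an adjusted p of at most 0.01 in edgeR's quasi-likelihood test with the replicate number as a block. Tfrc and Steap3 were also over the 2-fold limit, which 1.56% of all genes passed upwards, 1.91% downwards and 3.47% in either direction. The median log2 fold change was 0.10 over the 9 genes and -0.03 over all genes tested. Fitted as 6 unpaired samples, the test called no gene of the 9740 at the same threshold, while 1334 had an unadjusted p under 0.05.

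**Figure D1:**
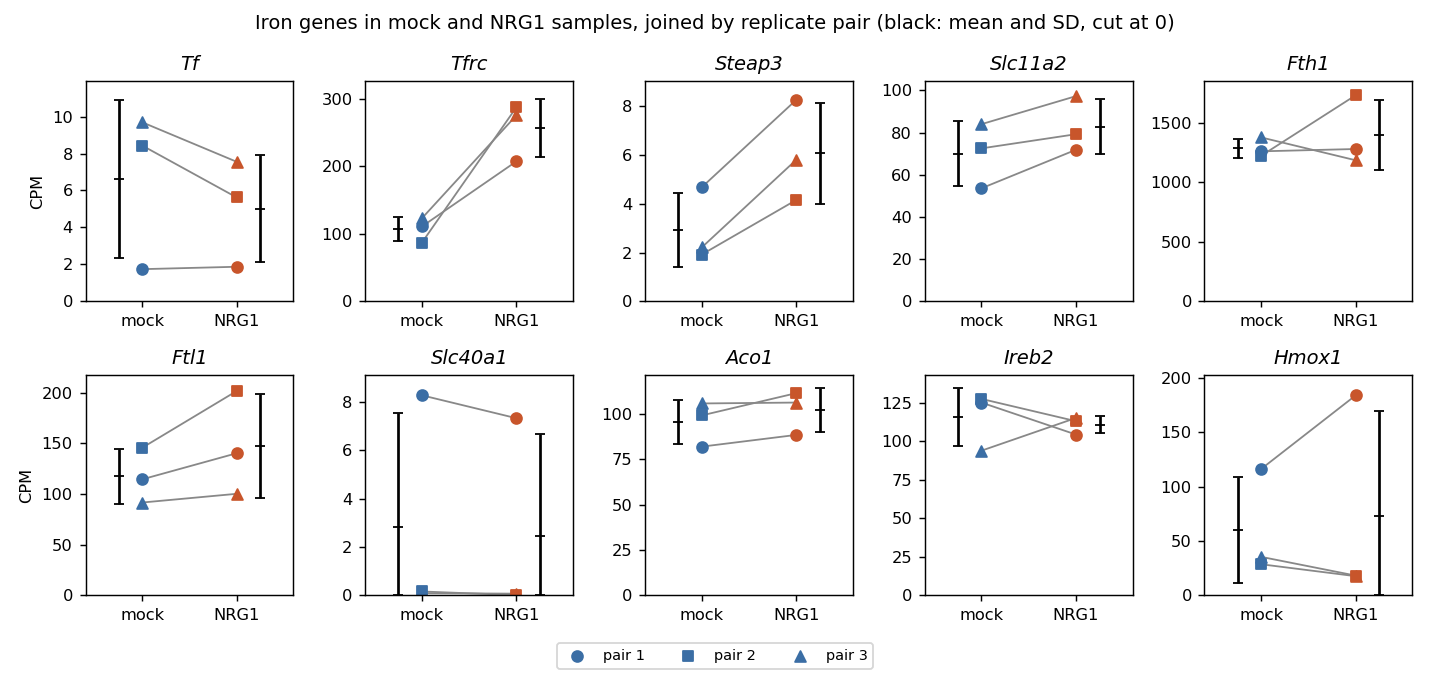
CPM of the 10 iron genes (linear axes from 0) in the 3 mock and 3 NRG1 samples, with a line joining the samples of a pair and black bars for mean ± SD of 3 samples. The Tfrc values of the NRG1 samples lie between 207.3 and 287.5 CPM, above all mock values. Slc40a1 and Hmox1 are highest in replicate 1, and Hmox1 is higher with NRG1 in pair 1 and lower in pairs 2 and 3.

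On the uptake side, Tfrc, the receptor itself, was counted at 110.8, 87.01 and 123.0 CPM in mock samples 1, 2 and 3 and at 207.3, 287.5 and 275.5 CPM in NRG1 samples 1, 2 and 3. Every NRG1 sample was above every mock sample, and Tfrc was the only one of the 10 genes whose groups did not overlap, which 10.2% of all tested genes showed in this direction. The mean was 106.9 ± 18.3 CPM in mock and 256.7 ± 43.2 CPM in NRG1 samples (SD, n = 3 each). The log2 fold change with its standard error (SE) was 1.26 ± 0.15 (SE), that is 2.40-fold, and 1.44 ± 0.18 (SE) without replicate 1. Within pairs 1, 2 and 3 the log2 ratio was 0.90, 1.72 and 1.16. The increase was thus present in all 3 pairs and smallest in replicate 1, where the sum of the fibroblast markers was highest.

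Steap3, the ferrireductase of the transferrin endosome, had few counts, which were 35, 13 and 28 in mock and 62, 37 and 90 in NRG1 samples, or 4.68, 1.92 and 2.21 against 8.27, 4.16 and 5.81 CPM. The groups overlapped, since mock sample 1 was above NRG1 sample 2, but each NRG1 sample exceeded the mock sample of its own pair. The log2 fold change was 1.11 ± 0.26 (SE), with log2 ratios of 0.80, 1.04 and 1.32 in pairs 1, 2 and 3, and 1.29 ± 0.36 (SE) without replicate 1. The call was lost without replicate 2, without replicate 3 and in DESeq2, where the log2 fold change was 1.11, 0.96 and 1.12.

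Slc11a2, which carries iron out of the endosome, was counted at 53.58, 72.51 and 83.99 CPM in mock samples and at 71.86, 79.23 and 97.28 CPM in NRG1 samples. It was higher with NRG1 in all 3 pairs by a small margin, with a log2 fold change of 0.25 ± 0.12 (SE), and did not pass the threshold, nor without replicate 1, at 0.17 ± 0.18 (SE). Tf, which encodes the carrier protein itself, was counted at 1.74, 8.43 and 9.69 CPM in mock and 1.87, 5.62 and 7.55 CPM in NRG1 samples. Its log2 fold change of -0.37 ± 0.23 (SE) did not pass either, and without replicate 1 it was -0.45 ± 0.27 (SE). The larger difference in Tf was between replicates, since both samples of replicate 1 held less than 2 CPM and the other 4 at least 5.62 CPM. Of these uptake genes the receptor and the reductase passed the threshold, and the ligand and the endosomal transporter did not. This division is a description only, since the genes were gathered with the same comparison in view.

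**Figure D2:**
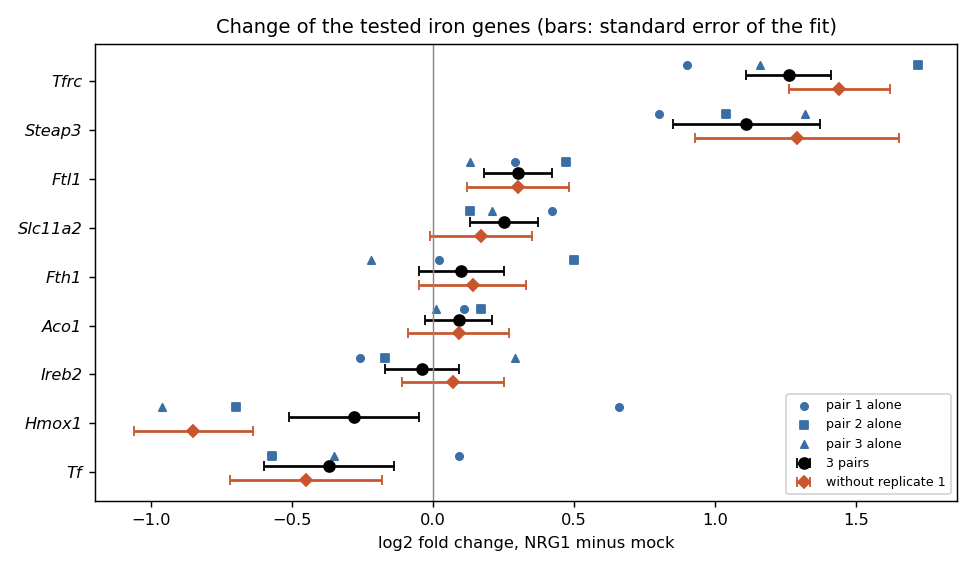
Log2 fold change of the 9 tested iron genes (horizontal axis, NRG1 minus mock) in the fit over 3 pairs (black, with standard error) and without replicate 1 (orange), with the log2 ratio of each pair alone in blue. Tfrc and Steap3 lie to the right of 0 in every pair, and Hmox1 moves from -0.28 to -0.85 when replicate 1 is left out.

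The ferritin genes did not pass the threshold. Fth1, the heavy chain with the ferroxidase activity, differed little between mock samples, at 1261.1, 1223.9 and 1378.0 CPM. In NRG1 samples 1, 2 and 3 it was counted at 1280.6, 1732.7 and 1185.8 CPM. Its log2 ratios of 0.02, 0.50 and -0.22 in pairs 1, 2 and 3 had no common direction, and the log2 fold change was 0.10 ± 0.15 (SE), or 0.14 ± 0.19 (SE) without replicate 1. Without replicate 2, whose NRG1 sample was the highest of the 6, the sign turned, at -0.09. Ftl1, the light chain, was at 114.4, 145.6 and 91.48 CPM in mock and 140.2, 201.7 and 100.1 CPM in NRG1 samples. It was higher with NRG1 in all 3 pairs, by 0.29, 0.47 and 0.13 on the log2 scale, and its log2 fold change of 0.30 ± 0.12 (SE) did not pass. Without replicate 1 its size was the same, 0.30 ± 0.18 (SE). In the RefSeq gene table of GRCr8, 1 other gene carries Ftl1 as a synonym. Between 24.5% and 29.9% of the alignments in each library were set aside as mapping to more than 1 place, so that the ferritin counts are uncertain to the extent that their reads were among them.

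Ferroportin, the exporter encoded by Slc40a1, was above the floor in replicate 1 alone. It had 62 counts in mock and 55 in NRG1 there, 8.28 and 7.33 CPM, and at most 1 count in each of the other 4 samples, below the floor of 3 counts per library. It did not pass the filter, and no fold change between conditions could be given for replicates 2 and 3. Dcn, Lum and Thy1, which had counts in the same 2 samples and none in the other 4, were divided between the replicates in the same way. Of the other fibroblast markers, Col1a1, Col3a1 and Postn were counted well above the floor in every sample. The macrophage marker Cd14 was at 7.75 CPM in mock and 5.33 CPM in NRG1 of replicate 1 and at 0.24 to 0.34 CPM elsewhere. Which cells the ferroportin counts came from was not tested.

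The messages of the iron regulatory proteins did not pass the threshold. Aco1, which serves as cytosolic aconitase when it holds an iron-sulfur cluster and binds RNA when it does not, was at 82.04, 99.29 and 105.9 CPM in mock and 88.52, 111.6 and 106.4 CPM in NRG1 samples. This was a log2 difference of 0.09 ± 0.12 (SE), and of 0.09 ± 0.18 (SE) without replicate 1. Ireb2, whose protein is degraded when iron is plentiful, was at 125.3, 127.7 and 94.0 CPM in mock and 104.5, 113.2 and 115.3 CPM in NRG1 samples, with a log2 fold change of -0.04 ± 0.13 (SE). Its sign turned without replicate 1, at 0.07 ± 0.18 (SE), and without replicate 2, at 0.03. The binding of these proteins to RNA is not measured by counts. Of the 8 other genes listed with these proteins and their control, none passed in edgeR's test, 0 had an unadjusted p under 0.05 and DESeq2 called 0, and their median log2 fold change was -0.04. Among them was Skp1, a subunit of the ubiquitin ligase that acts on Ireb2, at 0.05 ± 0.15 (SE, adjusted p = 0.83).

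Hmox1, the inducible haem oxygenase, went in opposite directions in the replicates. It was counted at 116.2, 28.41 and 35.22 CPM in mock samples 1, 2 and 3 and at 184.0, 17.42 and 17.95 CPM in NRG1 samples 1, 2 and 3. It was higher with NRG1 in pair 1, by 0.66 on the log2 scale, and lower in pairs 2 and 3, with log2 ratios of -0.70 and -0.96. Over the 3 pairs the log2 fold change was -0.28 ± 0.23 (SE) and did not pass. Without replicate 1 it was -0.85 ± 0.21 (SE) and passed as a fall, as 6.05% of the 9926 genes tested in those 4 samples did. That value rests on 2 pairs and on a spread estimated over all genes. Of the fibroblast markers, Col3a1 was likewise lower with NRG1 in pairs 2 and 3 alone. Others did not share this division: in pairs 1, 2 and 3 Postn had log2 ratios of -0.29, 0.29 and 0.38, and Col1a1 0.18, -0.68 and 0.01. Dcn, Lum and Thy1 had no count in replicates 2 and 3. The part of fibroblasts in the Hmox1 values was not tested. The 3 pairs hold 1 sample of each kind, so that the difference between pairs was not tested.

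**Figure D3:**
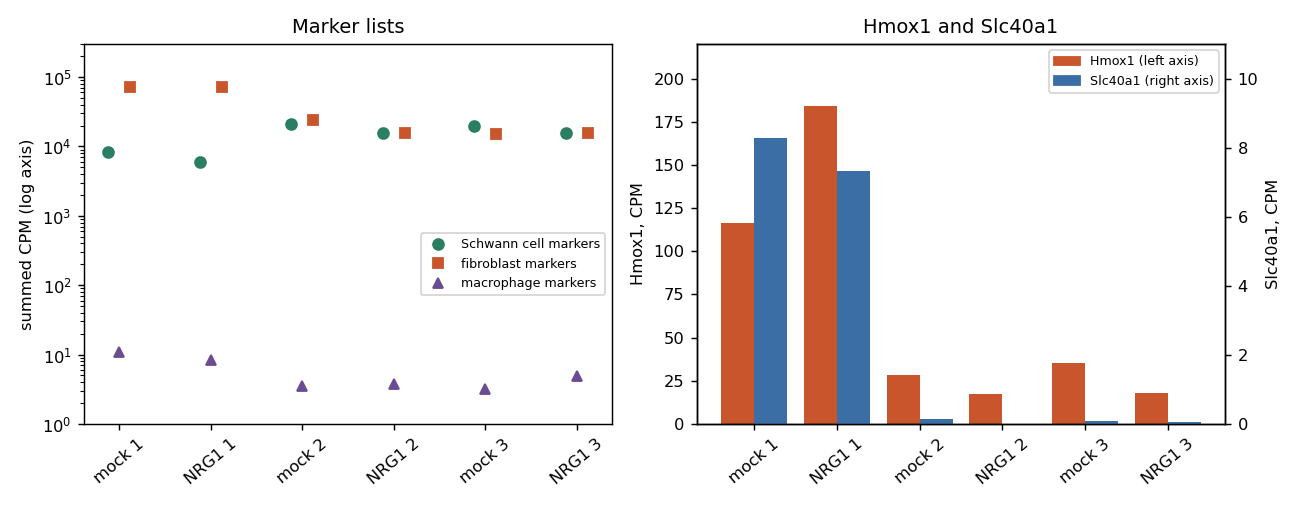
Left, summed CPM of the Schwann cell, fibroblast and macrophage marker lists in each sample (log axis). Right, CPM of Hmox1 (left axis) and Slc40a1 (right axis) in each sample. Both samples of replicate 1 have the highest fibroblast sum, at least 71280 CPM, together with the highest Hmox1 and Slc40a1. The macrophage sum is also highest there, at 10.69 CPM in mock and 8.40 CPM in NRG1.

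The spread between mock samples, which no comparison with NRG1 enters, divided the 10 genes in another way. It was widest for Slc40a1, which was not tested, with an SD of log2 CPM of 2.75 that rests on 62 counts in mock sample 1 and 1 count in each of the other 2. Among the 9 tested genes the SD of log2 CPM over the 3 mock samples was 0.09 for Fth1, 0.19 for Aco1, 0.25 for Ireb2 and 0.26 for Tfrc, all at or below the median of 0.27 over the tested genes. Ftl1 and Slc11a2 were slightly above it, at 0.33 each. Steap3 had an SD of 0.65, and Tf and Hmox1 had 1.30 and 1.09, larger than in 96.1% and 94.5% of all tested genes. The baseline of Tfrc thus differed little between the cultures, with 1.41-fold between the highest and the lowest mock sample, while that of Hmox1 differed 4.09-fold and that of Tf 5.58-fold.

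Genes whose level over the 6 samples was most like that of Tfrc were found by Pearson correlation of log2 CPM, over 9739 other genes. The 5 with the highest r were Emg1 (0.991), Wars (0.989), Mars (0.989), Tpm3 (0.988) and Rqcd1 (0.988), which encode a ribosome biogenesis methyltransferase, the tryptophan and methionine tRNA synthetases, a tropomyosin and a subunit of a deadenylase complex. Of the 9739 genes, 362 had r over 0.9, 121 over 0.95 and 1 over 0.99, and each r rests on 6 samples in 3 pairs. Among the iron genes the highest r with Tfrc were those of Steap3 (0.67) and Slc11a2 (0.55), and that of Ireb2 was -0.25. In all 5 genes every NRG1 sample was above every mock sample, as for Tfrc and for 10.2% of tested genes. Their choice by correlation with Tfrc over the same samples all but fixed this. Their changes differed in size. Emg1 averaged 22.5 ± 4.51 CPM in mock and 53.4 ± 12.2 CPM in NRG1 samples (SD, n = 3 each), or 2.35-fold, and Rqcd1 65.8 ± 3.97 and 87.5 ± 1.61 CPM, or 1.33-fold.

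The wider pathway was read from 8 lists of iron and haem genes. Without the 10 genes above they held 97 genes, of which 93 were in the files and 77 were tested. In edgeR's quasi-likelihood test 3 of the 77 rose and 6 fell at an adjusted p of at most 0.01, that is 11.7% of them, against 11.8% of all genes tested. The share of called genes was therefore at the background in this fit. The median log2 fold change was -0.05, beside -0.03 over all genes. Without replicate 1, 4 of 77 rose and 8 fell, 15.6% of them, against 12% of the 9926 genes tested in those samples, of which 5.94% rose and 6.05% fell. The 9 genes that passed over the 3 pairs were all among these 12. In the test with no replicate block none passed.

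**Figure D4:**
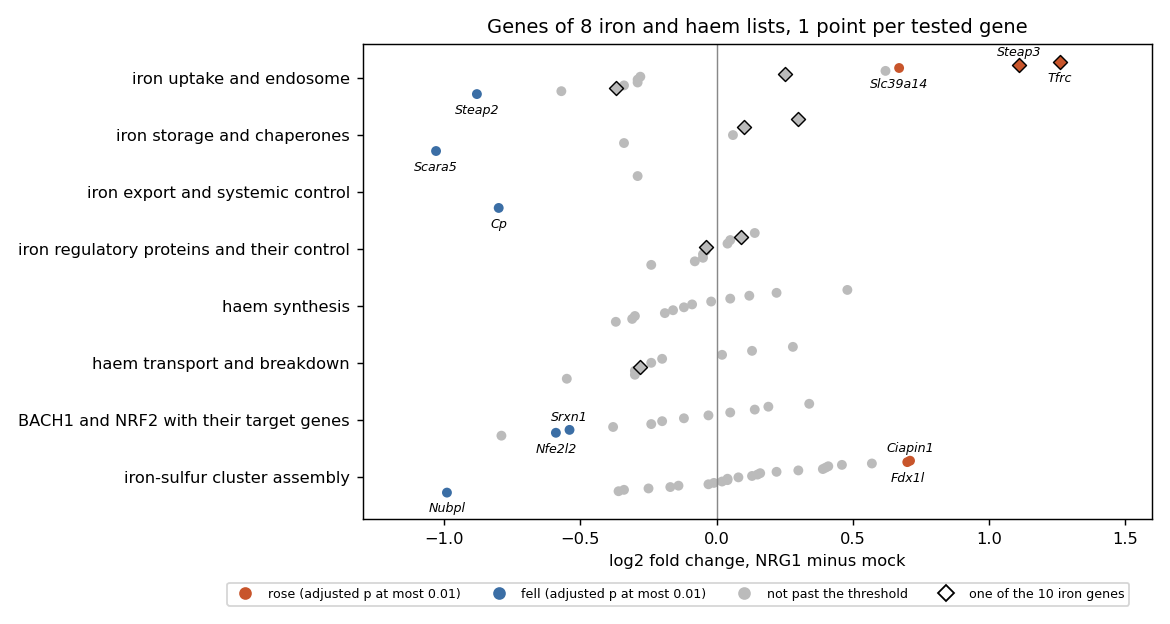
Log2 fold change (horizontal axis, NRG1 minus mock) of each tested gene in the 8 iron and haem lists, with genes that rose in orange, genes that fell in blue, genes not past the threshold in grey and the 10 iron genes as diamonds. Called genes are spread over 5 of the lists, on both sides of 0, and the lists of the iron regulatory proteins, haem synthesis and haem breakdown have none.

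In the list of iron uptake, 8 genes besides the members were tested, of which 1 rose and 1 fell, beside 11.8% of all genes tested in either direction. Slc39a14, a zinc and iron importer for iron that is not bound to transferrin, was counted at 340.3, 44.54 and 43.49 CPM in mock and 405.7, 78.90 and 84.57 CPM in NRG1 samples. It rose with a log2 fold change of 0.67 ± 0.14 (SE, adjusted p = 0.0045), and of 0.90 without replicate 1. Steap2, a metalloreductase related to Steap3, was at 157.3, 33.59 and 18.04 CPM in mock and 144.6, 10.56 and 8.0 CPM in NRG1 samples. It fell, with a log2 fold change of -0.88 ± 0.22 (SE, adjusted p = 0.01), the value nearest the threshold, and of -1.41 without replicate 1. Both genes were several times higher in replicate 1 than elsewhere, and both changed least there. The sum of the fibroblast markers was also highest in replicate 1, but not every marker was several times higher there. Col1a1 was at 28249.7 CPM in mock and 32087.1 CPM in NRG1 of replicate 1 and at 13413.2 to 21494.4 CPM elsewhere. Steap2 moved as the fibroblast marker Col3a1 did, with log2 ratios of -0.12, -1.65 and -1.15 in pairs 1, 2 and 3. The other tested fibroblast markers did not move so: Col1a1 had 0.18, -0.68 and 0.01, Postn -0.29, 0.29 and 0.38, and Pdgfra -0.07, 1.65 and 0.99. The part of fibroblasts in these values was not tested. Without replicate 2 or replicate 3 neither passed, with 0.59 and 0.55 for Slc39a14 and -0.52 and -0.75 for Steap2, which also did not pass in DESeq2 or with robust estimation. Lrp1, an endocytic receptor that takes up haem bound to haemopexin and was the most counted gene of the list, had a log2 fold change of -0.29 ± 0.21 (SE, adjusted p = 0.35), and of -0.60 without replicate 1. Slc25a37, the mitochondrial iron importer, was named after its values had been seen: it was higher in all 3 pairs, at 0.62 ± 0.17 (SE, adjusted p = 0.018), and did not pass.

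Besides the members, 3 genes of storage and 2 of export were tested, too few to read a direction. In each list 1 gene passed, as a fall, and 5.51% of all genes tested fell. Scara5, a cell-surface receptor for ferritin, was at 909.3, 60.96 and 36.95 CPM in mock and 772.7, 21.47 and 12.72 CPM in NRG1 samples. It had a log2 fold change of -1.03 ± 0.21 (SE, adjusted p = 0.0031). Its log2 ratio was -0.23 in replicate 1, where it was most abundant, and -1.5 and -1.52 in replicates 2 and 3, so that the log2 fold change without replicate 1 was -1.52. Col3a1, a fibroblast marker, had a like pattern, with 0.05, -1.59 and -1.38 in the same pairs and -1.48 without replicate 1. The other tested fibroblast markers did not: Col1a1 had 0.18, -0.68 and 0.01, Postn -0.29, 0.29 and 0.38, and Pdgfra -0.07, 1.65 and 0.99. Pdgfra had at most 25 counts in each sample of replicates 2 and 3. The part of fibroblasts in the Scara5 values was not tested. The call was lost without replicate 2 (-0.78), without replicate 3 (-0.79), in DESeq2 and with robust estimation. Cp, the ferroxidase ceruloplasmin that works with ferroportin, averaged 29.9 ± 7.30 CPM in mock and 17.2 ± 5.43 CPM in NRG1 samples (SD, n = 3 each). It fell, with a log2 fold change of -0.80 ± 0.14 (SE, adjusted p = 0.0013) and log2 ratios of -0.67, -0.96 and -0.77 in pairs 1, 2 and 3. Without replicate 1 the value was -0.87, and the call held whichever pair was left out. Ncoa4, the receptor that delivers ferritin to lysosomes, was singled out after its values had been seen. All its NRG1 samples, at 186.6 to 198.0 CPM, were below all mock samples, at 236.1 to 251.0 CPM, as for 9.94% of tested genes. Its log2 fold change of -0.34 ± 0.12 (SE, adjusted p = 0.046) did not pass.

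No gene of haem synthesis passed among 12 tested, and the median log2 fold change of the list was -0.10. The 2 most counted, Urod and Clpx, had -0.16 ± 0.13 (SE, adjusted p = 0.43) and -0.12 ± 0.13 (SE, adjusted p = 0.56). Of 8 genes of haem transport and breakdown besides Hmox1, none passed either, with a median of -0.22. Pgrmc1, a haem-binding membrane protein, had -0.24 ± 0.12 (SE, adjusted p = 0.17) and Por, which passes electrons to haem oxygenase, 0.02 ± 0.12 (SE, adjusted p = 0.91). At an unadjusted p under 0.05 edgeR counted 3 of the 12 and 1 of the 8, and DESeq2 called none of them at the threshold. Slc48a1, a haem transporter of endosomes and lysosomes named after its values had been seen, was lower in all 3 pairs, at -0.55 ± 0.14 (SE, adjusted p = 0.013), and passed as a fall without replicate 1, at -0.75 ± 0.20 (SE, adjusted p = 0.0019), and without the filter on low counts. Abcb6, a porphyrin transporter named after its values had been seen, was the gene of haem synthesis with the largest log2 fold change in size, 0.48 ± 0.13 (SE, adjusted p = 0.019), and passed as a rise without replicate 2 and without the filter.

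Hmox1 is a known target of the repressor BACH1 and the activator NRF2, and these factors, the NRF2 inhibitor Keap1 and other NRF2 target genes formed a list of 12, all tested. Of these, 2 fell and none rose, 16.7% of the list, with a median log2 fold change of -0.16. Over all genes tested 11.8% passed in either direction and 5.51% fell. Nfe2l2, which encodes NRF2, averaged 132.8 ± 50.1 CPM in mock and 92.6 ± 50.4 CPM in NRG1 samples (SD, n = 3 each) and had a log2 fold change of -0.59 ± 0.13 (SE, adjusted p = 0.0044). Srxn1, the sulfiredoxin that repairs oxidised peroxiredoxins, averaged 83.3 ± 11.4 CPM in mock and 57.0 ± 3.32 CPM in NRG1 samples (SD, n = 3 each), with -0.54 ± 0.13 (SE, adjusted p = 0.0071) and no overlap between the groups. Without replicate 1 the values were -0.71 and -0.67. The call of Nfe2l2 was lost without replicate 3 (-0.44), and that of Srxn1 without replicate 2 (-0.48) or 3 (-0.45). Nqo1, a quinone reductase among the most counted targets, had -0.03 ± 0.16 (SE, adjusted p = 0.92) and did not pass.

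Of the 24 tested genes of iron-sulfur cluster assembly, 2 rose and 1 fell, 12.5% of the list against 11.8% of all genes tested. The median log2 fold change was 0.11. Ciapin1, a factor of the cytosolic assembly machinery, averaged 45.8 ± 9.10 CPM in mock and 75.9 ± 18.6 CPM in NRG1 samples (SD, n = 3 each), a log2 fold change of 0.71 ± 0.14 (SE, adjusted p = 0.0029). Fdx1l, a mitochondrial ferredoxin, averaged 26.4 ± 6.58 CPM in mock and 43.3 ± 10.7 CPM in NRG1 samples (SD, n = 3 each), with 0.70 ± 0.14 (SE, adjusted p = 0.003). In the opposite direction, Nubpl, an assembly factor of respiratory complex I, averaged 10.6 ± 1.47 CPM in mock and 5.58 ± 1.95 CPM in NRG1 samples (SD, n = 3 each), with -0.99 ± 0.22 (SE, adjusted p = 0.0054). Without replicate 1 these were 0.85, 0.71 and -0.99. Ciapin1 kept its call whichever pair was left out, whereas that of Fdx1l was lost without replicate 2 (0.55) and that of Nubpl without replicate 3 (-0.74) and in DESeq2 (-0.98). The scaffold Iscu, on which clusters are built, had -0.17 ± 0.14 (SE, adjusted p = 0.41), and the chaperone Hspa9 had 0.40 ± 0.12 (SE, adjusted p = 0.031), so that neither passed.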

How the data were processed

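RNA was sequenced from 3 mock and 3 NRG1 samples of rat Schwann cells, in pairs from 3 independent experiments. The authors mapped the reads to rn5 with TopHat 2.0.10, obtained read counts for the RefSeq genes with htseq, and deposited these raw counts without normalization. The summary lines for alignments not assigned to a gene, between 50.1% and 53.0% of each file, were kept out of library sizes. Groups and pairs came from the titles.

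Genes were filtered with filterByExpr (minimum count 10), normalised with TMM and fitted by edgeR 4.0.16 in R 4.3.3 with a block for the replicate number; the authors' own paired test used DESeq2. P-values were adjusted over all 9740 genes by the Benjamini-Hochberg method, and standard errors are the log2 fold change over the square root of F. Log2 ratios of pairs use a prior count of 2. The study's thresholds were an adjusted p of at most 0.01 and, for the 2-fold limit, a log2 fold change over 1 in size. Samples of the same number deviated together from their group means (r across genes 0.91, 0.67 and 0.81 for replicates 1, 2 and 3, and -0.80 to 0.51 for different numbers). No pair of libraries agreed within sampling noise. The scripts were tested on simulated counts. Alternatives were no block, DESeq2 1.42.0, RLE, other filters, robust estimation, an adjusted p of 0.05, CPM without TMM and leaving out each pair.

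The members and lists were chosen with earlier results of these data known. Named were all 10 members and, of each list, up to 6 genes past the threshold with 1 direction in 3 pairs and the 2 most counted, with the 5 genes most like Tfrc. Some genes that this rule or the lists name are not reported here. Of the listed genes Pcbp1, Neo1, Flvcr1 and Lyrm4 are not analysed here. Protein sequences were not used here. Promoters are from RefSeq (GRCr8), and no coordinates of rn5 are given.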

Additional observations from a re-analysis of the deposited data

How the results depend on the processing

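With no replicate block 0 genes rose and 0 fell, against 615 and 537 with it, and 0 passed in either direction over 2-fold, among the 10 iron genes or among the 77 other pathway genes; the log2 fold change of Hmox1 was then 0.28 in place of -0.28. DESeq2 called 1 iron gene as risen and 3 pathway genes as fallen, where edgeR called 2 and 6. Without the filter 857 genes fell, and 6 pathway genes rose in place of 3. At an adjusted p of 0.05, 1124 genes rose and 1136 fell, and 7 pathway genes rose.

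Leaving out each replicate in turn gave 408 to 590 genes that rose (fewest without replicate 3) and 253 to 601 that fell (253 without replicate 3), 133 to 202 that rose and 122 to 299 that fell over 2-fold, 1 to 2 iron genes that rose (1 without replicate 2 or 3) and 0 to 1 that fell (Hmox1 without replicate 1), and 2 to 4 pathway genes that rose and 1 to 8 that fell (1 without replicate 3, 3 without replicate 2). The sign turned for Fth1 without replicate 2 (-0.09), for Ireb2 without replicate 1 (0.07) and replicate 2 (0.03), and for Hmox1 without replicate 3 (0.09), none of which passed. Over the replicates left out, Ireb2 ranged from -0.20 to 0.07 and Hmox1 from -0.85 to 0.09. The causes were not tested. The log2 fold change of Tfrc lay between 1.04 and 1.44 over the alternatives and passed in all of them except the fit with no block. Tfrc was gathered with this comparison in view, so that these refits of it are a description only. Without TMM, no level of the 10 genes moved by more than the SD between replicates. Depth limits Steap3, Tf and Slc40a1 most, and nothing was measured on iron or on protein.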
